A study of Mus musculus with 23 samples.

Results

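Imprinted genes are genes whose activity in somatic tissue depends on the parent that passed on the allele. Of a list of 38 such mouse genes, 37 were found by symbol in a deposited table of 22784 genes, and Mirg was not analysed here. By their known expressed allele, 21 of the 37 are paternally expressed and 13 maternally expressed. In the remaining 3, Gnas, Grb10 and H13, the allele depends on the transcript or tissue. The table does not separate the alleles, so the values below are total levels, and imprinting itself was not measured.

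The 23 samples, in 7 groups of 3 and 1 of 2 (day 6 PGCLCs), are sequenced poly(A) RNA and follow mouse oocytes made in culture from pluripotent cells beside their counterparts from animals. The 5 culture groups, of strain C57BL/6 X 129, began with female embryonic stem cells (ESCs) held in 2i and LIF. Next were primordial germ cell-like cells (PGCLCs) after 6 days of induction and sorting, and PGCLCs after 3 days in reaggregates with somatic cells of female E12.5 gonads. Secondary follicle oocytes were taken at day 21 of such reaggregates, which had received ICI182780, an estrogen receptor blocker, at 500 nM. Metaphase II (MII) oocytes followed 11 days of follicle culture, with FSH throughout and BMP15 and GDF9 at its start, and 16 hours of maturation with FSH, EGF and hCG. The 3 animal groups, of strain B6D2F1, were E12.5 primordial germ cells (PGCs) and postnatal day 8 secondary follicle oocytes, both sorted by BVSC transgenes, and MII oocytes of females aged 8 weeks, called natural oocytes here. Strain and route cannot be told apart, and the sex of the PGC embryos is not given in the labels. The PGCLC protocol names ES or induced pluripotent cells as its source without saying which gave each sample.

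Each gene had 1 FPKM value per group, that is sequenced fragments scaled by transcript length and library size, so its separate samples were not seen. No difference below has a replicate check, a spread or a test, and depth is unknown. Differences are of log2(FPKM + 1), a scale that understates differences of genes with low values. A gene was called higher or lower at a difference of at least 1, that is 2-fold on this scale, among 14242 genes with at least 1 FPKM in at least 1 group. Of the 37 imprinted genes, 32 met that minimum and 21 reached 10 FPKM somewhere. Since each group is a pool of cells, fewer cells of a type and less RNA per cell cannot be told apart. The 7 oocyte genes summed to at least 9521 FPKM in each oocyte group and at most 8.497 in the other groups, and the 5 germ cell genes to 32.8 FPKM in ESCs and at least 467 elsewhere. Without the highest gene of each group, the oocyte genes summed to at least 917 FPKM in the oocyte groups. At MII that gene was Gdf9, at 6768 FPKM in culture and 11132 in the animal. FPKM summed to between 268720 and 349772 in the 6 earlier groups, but to 616260 in cultured MII oocytes and 975407 in natural MII oocytes.

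Imprints are methylation marks laid down on DNA in the germ line. They are erased in primordial germ cells and set anew in the growing oocyte or in the male germ line, so germ cells and oocytes are where they turn over. Most marks lie on the maternal copy, at promoters such as those of Mest, Peg3 and Snrpn. Fewer lie on the paternal copy, as between H19 and Igf2 and beside Meg3. After fertilization ZFP57, a zinc finger protein that recognizes the methylated motif TGCCGC, helps to keep the marks.

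Promoter sequences from RefSeq (GRCm38.p6, the assembly of the authors' mm10) were matched for 29 of the 37 genes, in 42 windows from 250 bases before to 50 bases after a transcript start. The windows held a median of 14.5 CG pairs, against 7 over all 32851 promoter windows. TGCCGC, searched on both strands, stood in 11 of the 42 windows (26.2%), against 11.6% of all windows. By gene it stood in 10 of the 29 (34.5%), against 13.1% of all genes with a window. The motif itself holds a CG pair, and the windows were not matched for CG pairs, so a part beyond CG content was not tested. Windows of 1 gene can overlap, as 2 of the Mest windows do, and a match is a description of letters, not of binding. The next 2 sequences are the 250 bases before a transcript start of Mest, which was highest in MII oocytes, and of Meg3, which was highest in ESCs. For each gene the window with the most TGCCGC matches was taken. Another window of Mest and another of Meg3 held 0 matches. Both run 5′ to 3′ on the plus strand, and capitals mark TGCCGC or its reverse complement. The third is the 96 bases between the outermost ends of Peg3 and Usp29 in RefSeq, which are read in opposite directions from here and had opposite courses in oocytes. In GENCODE M21 both genes start farther out, with Peg3 ending at 6730431 and Usp29 starting at 6730578. It is written on the plus strand, and capitals mark its 3 CG pairs. The promoter windows of these last genes share 263 bases.

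Mest, chr6:30737800-30738049: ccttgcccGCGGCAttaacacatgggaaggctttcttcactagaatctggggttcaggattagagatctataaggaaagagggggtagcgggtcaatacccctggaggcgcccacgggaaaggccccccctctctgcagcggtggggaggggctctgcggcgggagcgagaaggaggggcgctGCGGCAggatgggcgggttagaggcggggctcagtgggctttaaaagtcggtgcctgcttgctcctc

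Meg3, chr12:109540746-109540995: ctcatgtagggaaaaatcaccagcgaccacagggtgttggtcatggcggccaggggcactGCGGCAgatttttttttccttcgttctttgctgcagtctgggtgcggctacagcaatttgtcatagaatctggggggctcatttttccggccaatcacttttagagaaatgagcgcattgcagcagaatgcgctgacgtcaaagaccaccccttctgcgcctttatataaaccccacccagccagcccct

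Between Peg3 and Usp29, chr7:6730463-6730558: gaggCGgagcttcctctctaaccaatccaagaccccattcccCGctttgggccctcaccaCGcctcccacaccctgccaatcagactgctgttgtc

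The 37 genes spanned a wide range of levels. The highest value was 687 FPKM, for Gnas in natural secondary follicle oocytes, and 9 genes had at least 1 FPKM in all 8 groups (Peg3, Mest, Copg2, Snrpn, Igf2r, Phlda2, Tssc4, Gnas and H13). Day 6 PGCLCs held the highest value of 10 of the 32 genes, or 31.3%, where 13.0% of all tested genes peaked. Magel2 and Nnat are among the 10 and reached 1 FPKM only in that group, so the minimum fixed their place there. Natural MII oocytes held the highest value of 7 (21.9%, against 26.4% of all tested genes) and ESCs of 6 (18.8%, against 19.1%).

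**Figure D1:**
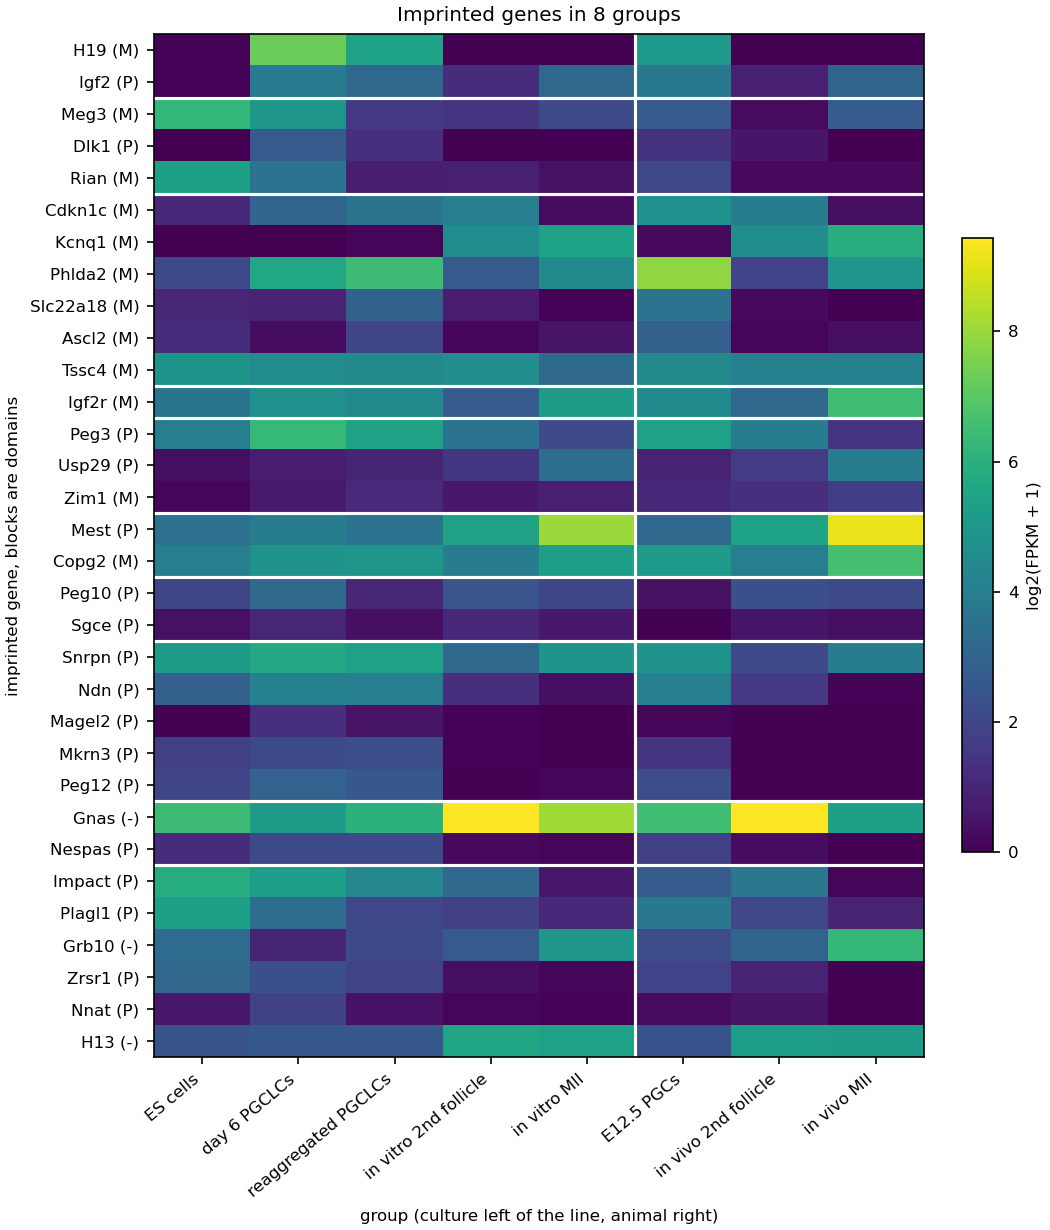
Levels of the 32 imprinted genes with at least 1 FPKM, as log2(FPKM + 1) by color, with genes in rows by domain and the 8 groups in columns, where in vitro stands for cultured and in vivo for natural oocytes. P and M mark the allele known to be expressed in somatic tissue, paternal or maternal, and a dash a gene where it varies. H19 is bright in PGCLCs and PGCs and dark in ESCs and oocytes, while Mest, Kcnq1 and H13 are brighter in the 4 oocyte groups than in the other 4.

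H19 and Igf2 share an imprinted domain on chromosome 7. H19, a maternally expressed noncoding RNA gene (7:142575529-142578143, minus strand, GRCm38), had 0.0649 FPKM in ESCs, 159 in day 6 PGCLCs and 43.7 in reaggregated PGCLCs. It then had 0.0303 FPKM in cultured secondary follicle oocytes and was listed at 0 in cultured MII oocytes. In the animal H19 had 32.4 FPKM in E12.5 PGCs, 0.0256 in secondary follicle oocytes and 0.0248 in MII oocytes. It was thus a gene of the germ cell stages here, near 0 before and after them on the culture route.

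Igf2, the paternally expressed fetal growth factor gene, had 0.0573 FPKM in ESCs, 13.4 in day 6 PGCLCs and 7.93 in reaggregated PGCLCs. Its values were 1.27 FPKM in cultured secondary follicle oocytes and 8.14 in cultured MII oocytes. In the animal they were 12.9 FPKM in PGCs, 0.822 in secondary follicle oocytes and 7.30 in MII oocytes. Igf2, like H19, was thus lower in the growing oocyte than in germ cells on both routes, and unlike H19 it was higher again at MII. H19 had 11.8 times the level of Igf2 in day 6 PGCLCs, 5.51 times in reaggregated PGCLCs and 2.52 times in PGCs, while Igf2 had 41.8 times the level of H19 in cultured secondary follicle oocytes and 32.1 times in natural ones. Exons of Igf2 overlap its antisense gene Igf2os, and it is not given whether the authors' values used strand.

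Somatic cells also make H19 and Igf2, and markers of such cells moved with them in part. The 11 gonadal stroma genes summed to 1.34 FPKM in ESCs, 16.2 in day 6 PGCLCs and 11.3 in reaggregated PGCLCs, with 0, 4 and 5 genes at 1 FPKM or more and 4, 1 and 0 listed at 0. In the 4 oocyte groups they summed to between 11.8 and 80.6 FPKM, mostly from Gata4, at 10.8 to 76.7 FPKM. In E12.5 PGCs, where H19 had 32.4 FPKM, they summed to 1.35 FPKM with 0 genes at 1 FPKM. Dcn, itself a gene of stromal matrix, was at 0.390 FPKM in day 6 PGCLCs and 0.0392 in reaggregated PGCLCs. It was listed at 0 in ESCs, PGCs and natural MII oocytes. For secondary follicle oocytes its values were 0.0715 (cultured) and 0.153 (natural). Its highest value, 0.619 FPKM, stood in cultured MII oocytes, where H19 was listed at 0. At MII the 5 cumulus cell genes summed to 13.6 FPKM in culture and 10.5 in the animal, against at most 0.904 in the other groups. The part of either cell type in these values was not tested.

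On chromosome 12, Meg3 and Rian are maternally expressed noncoding RNA genes and Dlk1 encodes a paternally expressed membrane protein related to Notch ligands. Meg3 had 75.1 FPKM in ESCs, 30.9 in day 6 PGCLCs and 1.93 in reaggregated PGCLCs, then 1.64 in cultured secondary follicle oocytes and 3.52 in cultured MII oocytes. In the animal it had 5.34 FPKM in PGCs, 0.214 in secondary follicle oocytes and 5.67 in MII oocytes. ESCs stood highest, and the step from day 6 to reaggregated PGCLCs was 16.0-fold lower in FPKM.

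Rian, which hosts small nucleolar RNAs, had 40.2 FPKM in ESCs, 11.0 in day 6 PGCLCs and 0.710 in reaggregated PGCLCs, then 0.769 and 0.353 in cultured secondary follicle and MII oocytes. In the animal the values were 3.16 FPKM in PGCs, 0.178 in secondary follicle oocytes and 0.182 in MII oocytes. Like Meg3 it was highest in ESCs, but at MII it was not called higher than at the secondary follicle. The level of Meg3 over Rian lay between 1.20 and 2.80 in the groups before MII, and at 9.95 in cultured and 31.2 in natural MII oocytes. Dlk1 reached 5.39 FPKM in day 6 PGCLCs, with 1.47 in reaggregated PGCLCs, 1.58 in PGCs and less than 1 in the other 5 groups. Day 6 PGCLCs therefore had the maternal RNAs of this domain below their ESC level and Dlk1, at 0.0234 FPKM in ESCs, above it.

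The Kcnq1 domain on chromosome 7 holds maternally expressed genes that restrain growth. Phlda2, a brake on placental growth, had 3.20 FPKM in ESCs, 47.5 in day 6 PGCLCs, 87.0 in reaggregated PGCLCs, 5.39 in cultured secondary follicle oocytes and 22.0 in cultured MII oocytes. In PGCs it had 229 FPKM, in natural secondary follicle oocytes 2.75 and in natural MII oocytes 30.3. The germ cell groups stood highest, and both MII groups stood above their secondary follicle groups.

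Cdkn1c, which encodes the cell cycle inhibitor p57, had 1.08 FPKM in ESCs, 7.39 in day 6 PGCLCs, 11.3 in reaggregated PGCLCs, 15.5 in cultured secondary follicle oocytes and 0.234 in cultured MII oocytes. In the animal it had 26.3 FPKM in PGCs, 14.8 in secondary follicle oocytes and 0.323 in MII oocytes. Unlike its neighbor Phlda2 it stayed above 10 FPKM in the growing oocyte and was below 1 at MII, where Phlda2 had 94.2 times its level in culture and 93.8 times in the animal.

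Kcnq1, a potassium channel gene, had 0.0226 FPKM in ESCs, 0.00341 in day 6 PGCLCs, 0.126 in reaggregated PGCLCs and 0.183 in PGCs. It had 22.9 FPKM in cultured and 23.8 in natural secondary follicle oocytes, and 43.5 and 61.3 in the MII groups. Oocyte and other groups did not overlap, and how many of all tested genes split the groups this way was not counted. Kcnq1ot1, the paternally expressed RNA that runs antisense through Kcnq1, was at most 0.105 FPKM and at most 0.00445 in the 4 oocyte groups. Exons of this pair overlap on opposite strands.

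Slc22a18, a transporter gene of the same domain, had 10.9 FPKM in PGCs, 6.595 in reaggregated PGCLCs, 1.00 in ESCs, and 0.868 in day 6 PGCLCs. In cultured secondary follicle and MII oocytes it had 0.632 and 0.0580 FPKM, in natural secondary follicle oocytes 0.186, and it was listed at 0 in natural MII oocytes. Ascl2, a transcription factor gene of trophoblast, had the same 2 highest groups, with 6.45 FPKM in PGCs and 2.96 in reaggregated PGCLCs, and at most 1.38 elsewhere. Tssc4, whose exons overlap Trpm5 on the other strand, varied less. It had 28.5 FPKM in ESCs, 22.3 and 20.7 in day 6 and reaggregated PGCLCs, 23.4 in cultured secondary follicle oocytes, 20.9 in PGCs and 16.7 and 16.8 in natural secondary follicle and MII oocytes. Only in cultured MII oocytes was it below 10, at 8.69 FPKM.

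**Figure D2:**
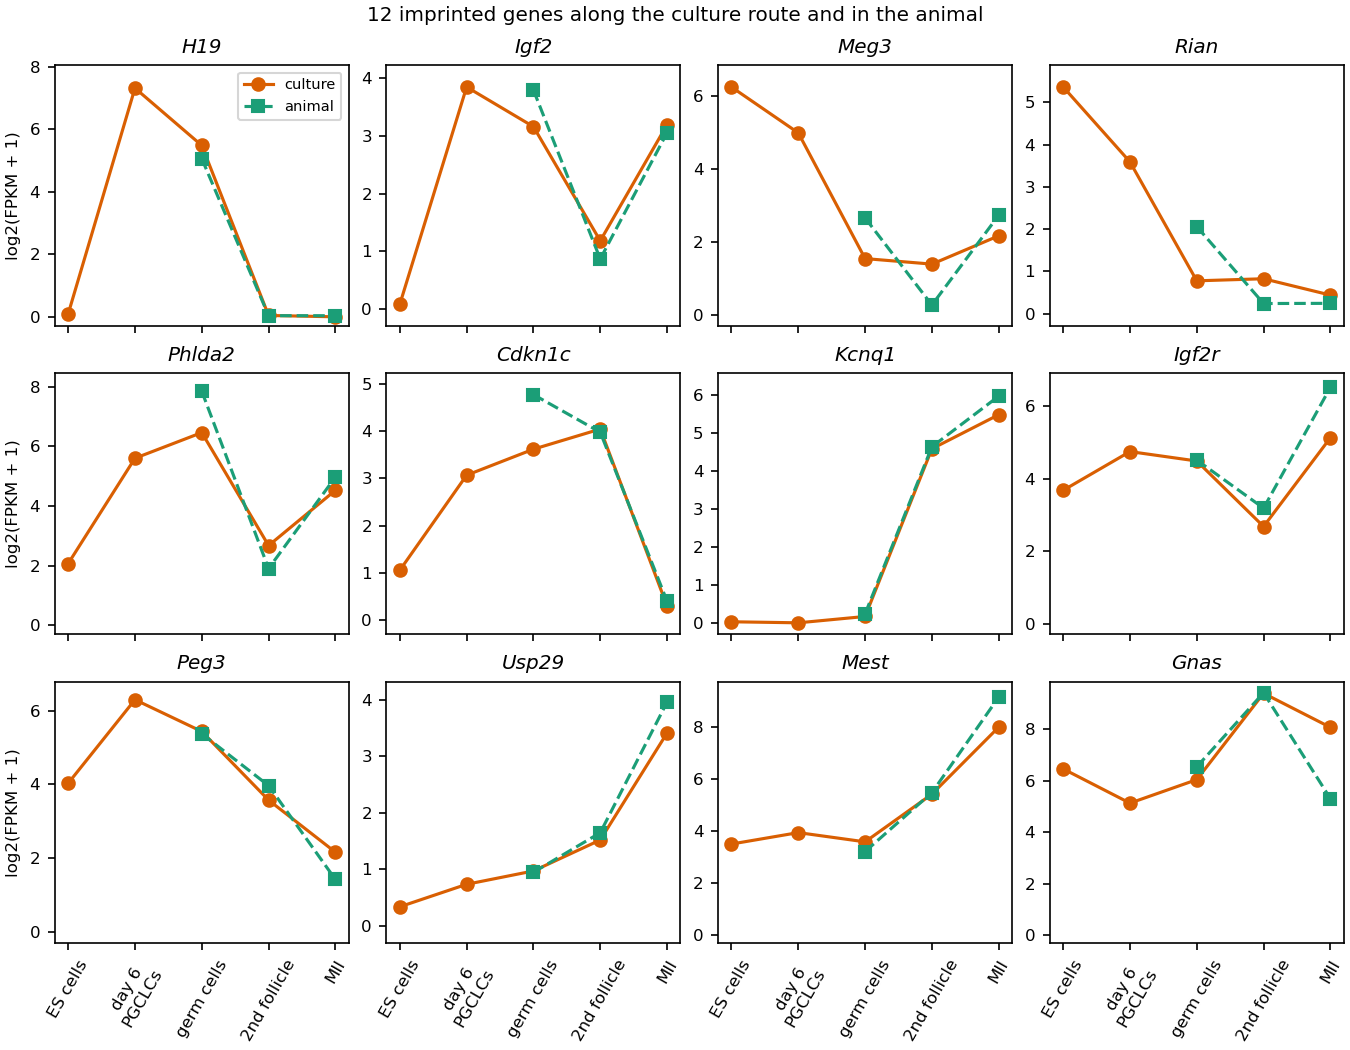
Levels of 12 imprinted genes, as log2(FPKM + 1), at 5 stages in culture (circles, solid line) and 3 stages in the animal (squares, dashed line), each point 1 deposited value per group with no error. The vertical scale differs between panels. Igf2, Phlda2 and Igf2r dip at the secondary follicle and are higher at MII on both routes, while Peg3 goes down and Usp29 up.

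Igf2r encodes the receptor that takes up IGF2 for breakdown and is maternally expressed. It had 11.8 FPKM in ESCs, 25.8 in day 6 PGCLCs, 21.4 in reaggregated PGCLCs, 5.40 in cultured secondary follicle oocytes and 33.9 in cultured MII oocytes. In the animal it had 21.8 FPKM in PGCs, 8.09 in secondary follicle oocytes and 90.5 in MII oocytes. The low point at the secondary follicle was shared by both routes. Airn, the antisense RNA that silences the paternal Igf2r copy in somatic cells, was at most 0.569 FPKM.

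Grb10, an adaptor gene that restrains growth factor signaling, had 8.93 FPKM in ESCs, 0.989 in day 6 PGCLCs, 3.27 in reaggregated PGCLCs, 5.36 in cultured secondary follicle oocytes and 30.5 in cultured MII oocytes. Values in the animal were 3.68 FPKM in PGCs, 7.29 in secondary follicle oocytes and 77.2 in MII oocytes. Day 6 PGCLCs were lowest and natural MII oocytes highest.

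At the Peg3 domain, at the start of chromosome 7, Peg3 and Usp29 lie head to head and are both paternally expressed in somatic tissue. Peg3, a zinc finger gene, had 15.4 FPKM in ESCs, 78.0 in day 6 PGCLCs, 42.4 in reaggregated PGCLCs, 10.9 in cultured secondary follicle oocytes and 3.46 in cultured MII oocytes. In the animal it had 40.6 FPKM in PGCs, 14.7 in secondary follicle oocytes and 1.67 in MII oocytes. Peg3 was lower at each later stage of both routes after day 6.

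Usp29, a gene of the deubiquitinase family, lies on the other side of the stretch printed above and was higher at each later stage in oocytes. It had 0.262 FPKM in ESCs, 0.663 in day 6 PGCLCs, 0.960 in reaggregated PGCLCs, 1.87 in cultured secondary follicle oocytes and 9.67 in cultured MII oocytes. In PGCs it had 0.927 FPKM, in natural secondary follicle oocytes 2.13 and in natural MII oocytes 14.6. Peg3 had 44.2 times the level of Usp29 in reaggregated PGCLCs and 43.8 times in PGCs, whereas at MII Usp29 had 2.79 times the level of Peg3 in culture and 8.73 times in the animal. Exons of Usp29 overlap Zim3 on the other strand. Zim1, the maternally expressed neighbor, lay between 0.112 and 2.34 FPKM.

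Mest, a paternally expressed gene for a hydrolase-fold protein whose promoter is printed above, had 10.3 FPKM in ESCs, 14.4 in day 6 PGCLCs, 11.0 in reaggregated PGCLCs, 42.0 in cultured secondary follicle oocytes and 257 in cultured MII oocytes. In the animal it had 8.27 FPKM in PGCs, 43.8 in secondary follicle oocytes and 573 in MII oocytes. It was the highest of the 32 genes in natural MII oocytes. Copg2, a coatomer gene whose end overlaps exons of Mest on the other strand, had 15.5 FPKM in ESCs, 27.0 in day 6 PGCLCs, 30.7 in reaggregated PGCLCs, 14.9 in cultured secondary follicle oocytes and 38.1 in cultured MII oocytes. For Copg2 the animal groups had 33.1 FPKM in PGCs, 15.5 in secondary follicle oocytes and 98.6 in MII oocytes. Where counting ignored strand, reads of the overlap cannot be told apart between the pair.

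The Snrpn domain, also on chromosome 7, is paternally expressed, and in people its loss underlies Prader-Willi syndrome. Snrpn, a gene of the spliceosome, had 34.4 FPKM in ESCs, 50.2 in day 6 PGCLCs, 41.6 in reaggregated PGCLCs, 8.15 in cultured secondary follicle oocytes and 28.2 in cultured MII oocytes. In the animal the values were 27.4 FPKM in PGCs, 3.25 in secondary follicle oocytes and 14.4 in MII oocytes. Snrpn, too, had its low point at the secondary follicle on both routes.

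Ndn, which encodes the MAGE family protein necdin, had 6.39 FPKM in ESCs, 16.7 in day 6 PGCLCs, 15.6 in reaggregated PGCLCs, 1.45 in cultured secondary follicle oocytes and 0.302 in cultured MII oocytes. In PGCs it had 16.3 FPKM, in natural secondary follicle oocytes 1.96 and in natural MII oocytes 0.0542. Unlike Snrpn it was not higher at MII. Mkrn3, a ubiquitin ligase gene, and Peg12, of the Frat family, were at 1.75 to 6.87 FPKM in the ESC and germ cell groups and at most 0.0943 in the oocyte groups, 0 included. Magel2 passed 1 FPKM only in day 6 PGCLCs, at 1.39.

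Gnas, which encodes the stimulatory G protein subunit that raises cAMP and so bears on the arrest of oocytes in prophase, had 87.2 FPKM in ESCs, 34.0 in day 6 PGCLCs, 65.0 in reaggregated PGCLCs, 677 in cultured secondary follicle oocytes and 269 in cultured MII oocytes. In the animal it had 92.3 FPKM in PGCs, 687 in secondary follicle oocytes and 38.6 in MII oocytes. The secondary follicle groups stood highest on both routes. The table gives 1 value for all transcripts of this locus, some maternal and some paternal. Nespas, its paternal antisense RNA, lay between 1.27 and 3.45 FPKM in the ESC and germ cell groups and at most 0.235 in oocytes, and its exons overlap those of Gnas.

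Impact, a paternally expressed regulator of translation under stress, had 55.5 FPKM in ESCs, 37.7 in day 6 PGCLCs, 19.5 in reaggregated PGCLCs, 8.35 in cultured secondary follicle oocytes and 0.530 in cultured MII oocytes. Its values in the animal were 5.74 FPKM in PGCs, 12.46 in secondary follicle oocytes and 0.121 in MII oocytes. Impact was lower at every later stage in culture, while in the animal the secondary follicle stood above PGCs. Plagl1, a zinc finger gene that regulates other imprinted genes, had 39.0 FPKM in ESCs, 9.35 in day 6 PGCLCs, 3.15 in reaggregated PGCLCs, 2.47 in cultured secondary follicle oocytes and 1.13 in cultured MII oocytes. For Plagl1 the animal values were 12.7 FPKM in PGCs, 3.01 in secondary follicle oocytes and 0.888 in MII oocytes.

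H13, which encodes signal peptide peptidase and harbors an imprinted retrogene, was higher in every oocyte group than in the other groups. As for Kcnq1, the share of all tested genes with such a split was not counted. H13 had 4.51 FPKM in ESCs, 4.98 and 5.02 in day 6 and reaggregated PGCLCs and 4.19 in PGCs. In oocytes it had 45.6 FPKM at the cultured and 38.0 at the natural secondary follicle, and 41.2 and 35.6 at MII. Peg10, a retrotransposon-derived gene of the placenta, had 8.51 FPKM in day 6 PGCLCs, 0.333 in PGCs, 1.04 in reaggregated PGCLCs and 2.93 to 4.62 in ESCs and oocytes. Its neighbor Sgce was at most 1.09 FPKM. Zrsr1, a retrogene inside Commd1 whose exons overlap that host, had 7.69 FPKM in ESCs, 2.76 to 3.96 in germ cell groups and at most 0.857 in oocytes. Nnat passed 1 FPKM only in day 6 PGCLCs, at 2.54. Airn, Kcnq1ot1, Nap1l5, Rasgrf1 and Dcn stayed at or below 0.619 FPKM in all 8 groups and were not compared.

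Day 6 PGCLCs were set against ESCs, the group before them on the culture route. The PGCLCs had also been through induction medium and sorting. The 11 gonadal stroma genes summed to 16.2 FPKM in them and 1.34 in ESCs. The part of each in the differences was not tested. Among the 32 imprinted genes 11 were higher and 5 lower, against 9.63% of all tested genes higher and 12.0% lower. H19 was higher by 7.23 and Igf2 by 3.77 on the log2 scale, and the other higher genes were Dlk1, Cdkn1c, Peg3, Ndn, Magel2, Igf2r, Phlda2, Peg10 and Nnat. The lower ones were Meg3, Rian, Plagl1, Grb10 and Gnas. Of 17 paternally expressed genes 7 were higher and 1 lower, and of 12 maternally expressed genes 4 and 2. The median difference was 0.53 over the 32 genes and 0.00021 over all tested genes. The counts were 6 higher and 5 lower with a pseudocount of 5. For this and the other alternative settings below, the share of all tested genes called was not counted. Magel2 and Nnat passed the minimum of 1 FPKM only through day 6 PGCLCs, and with a minimum of 5 FPKM the counts were 9 and 5.

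Reaggregated against day 6 PGCLCs, 3 of the 32 genes were higher (Grb10, Slc22a18 and Ascl2), against 5.15% of all tested genes. Lower were 7 (H19, Meg3, Dlk1, Rian, Plagl1, Peg10 and Nnat), against 5.04%. With a pseudocount of 5 there were 0 higher and 4 lower, and with equal FPKM sums 5 and 7, with the median of all genes at 0.11. A minimum of 5 FPKM left 3 higher and 6 lower, without Nnat, which reached 1 FPKM only in day 6 PGCLCs. In the main setting the median of the 32 genes was -0.26, against -0.015 for all tested genes.

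In secondary follicle oocytes more imprinted genes were lower than higher, compared with germ cells. In culture, against reaggregated PGCLCs, 15 of 32 were lower and 5 higher, against 26.4% and 25.2% of all tested genes. In the animal, against PGCs, 17 were lower and 5 higher, against 25.9% and 24.3%. The medians were -0.74 in culture and -1.03 in the animal, beside -0.09 for all tested genes in each. The 5 genes higher were Mest, Kcnq1, Peg10, Gnas and H13 on each route, and 13 genes were lower on each. Of all 14242 tested genes 3075 were higher and 3138 lower on both routes. These 13 were H19, Igf2, Peg3, Snrpn, Ndn, Mkrn3, Peg12, Igf2r, Phlda2, Slc22a18, Ascl2, Zrsr1 and Nespas. Of them H19, Mkrn3, Peg12, Slc22a18, Ascl2, Zrsr1 and Nespas reached 1 FPKM only in ESC or germ cell groups. Kcnq1 reached it only in oocyte groups. The minimum of 1 FPKM therefore bore on the direction of these genes, and the part it had in the counts was not tested. With a pseudocount of 5 the genes lower were 8 in culture and 10 in the animal, and 4 were higher on each route. The share of all tested genes under that pseudocount was not counted, so these counts cannot be set against it. Copg2, called lower in the animal at -1.05, was just short of a call in culture at -0.9998. Equal FPKM sums put the median of all genes at -0.38 and -0.34 and left 5 genes higher on each route.

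From the secondary follicle to MII the genes divided. In culture 8 were higher and 5 lower, against 23.9% and 28.6% of all tested genes, and in the animal 10 and 6, against 28.0% and 33.1%. Igf2, Usp29, Mest, Copg2, Snrpn, Igf2r, Grb10 and Phlda2 were higher on each route, and Impact, Cdkn1c, Peg3 and Gnas lower on each, as were 3100 and 3713 of all tested genes. The shares higher, 25.0% and 31.3%, lie near those of all tested genes, and the shares lower, 15.6% and 18.8%, lie below them. Scaling the groups to equal FPKM sums moved the median of all genes to -0.50 in culture and -0.74 in the animal, from -0.08 and -0.09. Under it the counts became 6 higher and 8 lower in culture and 8 and 10 in the animal, and the difference of Kcnq1 in the animal turned from 1.33 to -0.11. After median centring, with the median of all genes at 0.51 and 0.89, the counts were 10 and 2 in culture and 12 and 4 in the animal. Peg3 in culture, at -1.42, was then no longer called, at -0.83. Nor was it called with a pseudocount of 5 (-0.91) or under quantile normalization (-0.86).

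**Figure D3:**
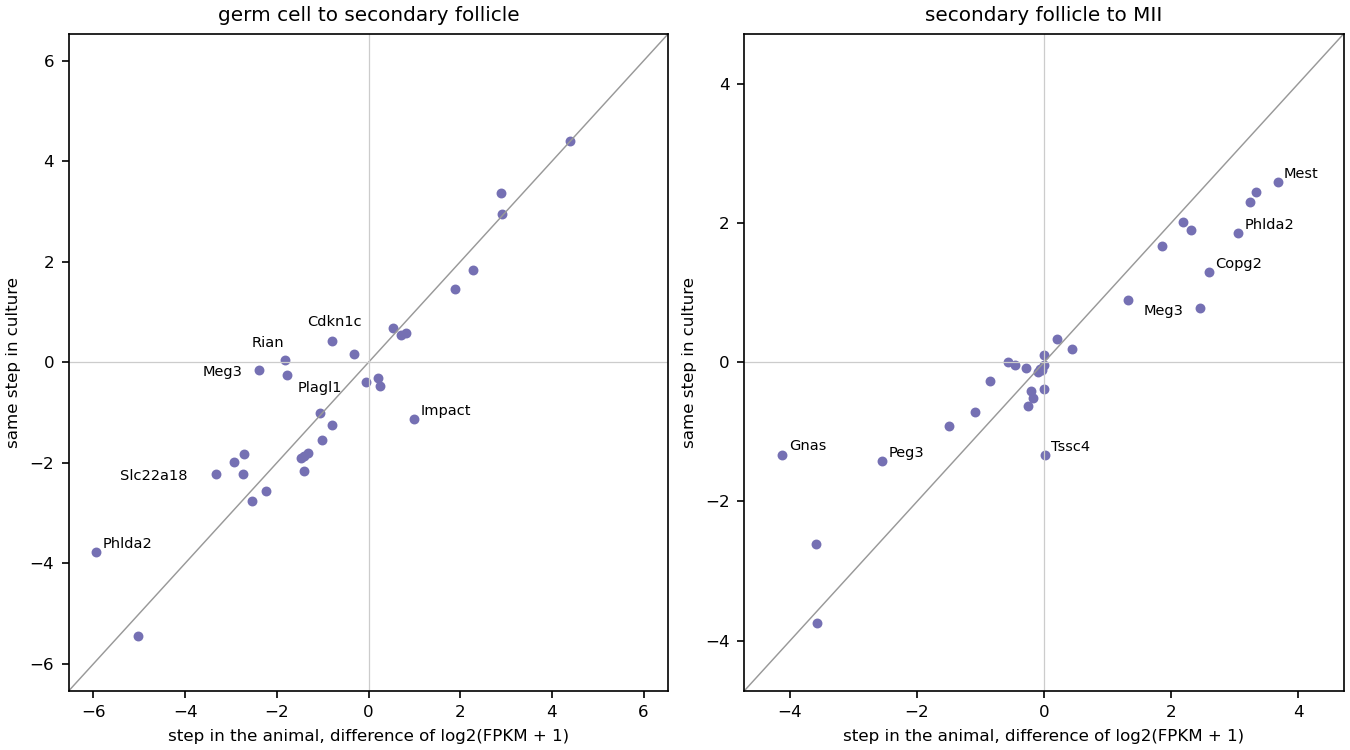
Difference of log2(FPKM + 1) for each of the 32 imprinted genes over the same step in the animal (horizontal) and in culture (vertical), with the line of equality. Genes whose steps differ by at least 1 are named, among them Meg3, Rian, Plagl1 and Impact on the left and Gnas, Mest and Tssc4 on the right. Called in opposite directions on the routes were 0 of the 32 genes at either step, and of all tested genes 0 at the first and 7 at the second.

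The same step was set side by side on the routes. Into the secondary follicle, Meg3 differed by -0.15 in culture and -2.38 in the animal, Rian by 0.05 and -1.82, and Plagl1 by -0.26 and -1.78. Impact differed by -1.13 in culture and 0.998 in the animal, just short of a call. Phlda2, lower on both, differed by -3.78 in culture and -5.94 in the animal. Cdkn1c differed by 0.43 in culture and -0.80 in the animal, and Slc22a18 by -2.22 and -3.33. Of these 7 genes, those other than Slc22a18 were also called between the germ cell groups from which the step starts. Into MII, Gnas differed by -1.33 in culture and -4.12 in the animal, Tssc4 by -1.33 and 0.01, Mest by 2.58 and 3.68, and Copg2 by 1.30 and 2.60. Meg3 differed by 0.77 in culture and 2.46 in the animal, Phlda2 by 1.85 and 3.06, and Peg3 by -1.42 and -2.55. At both steps these are all the genes whose values lay at least 1 apart. These differences between routes were not tested.

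Reaggregated PGCLCs were set against E12.5 PGCs, the germ cells of the embryo they stand in for. Impact was the 1 gene higher in culture, by 3.39-fold in FPKM, where 1.39% of all tested genes were higher. Lower were 5 of 32, against 0.786% of all tested genes. They were Plagl1 (4.04-fold), Rian (4.46-fold), Meg3 (2.77-fold), Phlda2 (2.63-fold) and Cdkn1c (2.33-fold). Of the 5, Plagl1 is paternally expressed and the other 4 are 4 of the 12 maternally expressed genes compared, from the Meg3 and Kcnq1 domains. The other maternal genes of those domains with at least 1 FPKM in these groups were not called, with Slc22a18 at -0.65, Ascl2 at -0.91 and Tssc4 at -0.01. The median over the 32 genes was 0.0045, and 26 genes were not called. Beside this stand the gonadal stroma genes, 11.3 FPKM in reaggregated PGCLCs and 1.35 in PGCs. The 11 granulosa genes summed to 21.0 and 11.4 FPKM, or 13.7 and 3.33 without Nr5a2, with 6 and 1 genes at 1 FPKM or more. The part of these cells in the differences was not tested. With a pseudocount of 5, Cdkn1c (-0.94), Meg3 (-0.58) and Rian (-0.52) were no longer called.

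Between the routes, 2 imprinted genes were called in secondary follicle oocytes. Snrpn had 8.15 FPKM in culture against 3.25, and Meg3 1.64 against 0.214, and they were the 2 genes of 32 (6.25%) called higher, where 1.74% of all tested genes were. Called lower were 0 of 32 (0.660% of all tested genes). The median size of the difference was 0.29 over the 32 genes and 0.19 over all tested genes. With a pseudocount of 5 neither gene was called, at 0.67 for Snrpn and 0.35 for Meg3, and under quantile normalization Meg3 was at 0.95. The 11 granulosa genes summed to 22.7 FPKM in culture and 29.1 in the animal, or 7.38 and 8.39 without Nr5a2.

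MII oocytes differed in 5 of the 32 genes. Gnas was 6.99-fold higher in culture, the 1 gene called higher, where 12.4% of all tested genes were. Igf2r (2.67-fold), Copg2 (2.59-fold), Grb10 (2.53-fold) and Mest (2.23-fold) were lower in culture, 4 of 32 genes, where 9.45% of all tested genes were. The share higher lies below that of all tested genes and the share lower near it. All 4 lower calls ended with equal sums, where they lay between -0.73 and -0.49, and under quantile normalization, where they lay between -0.73 and -0.42, while Gnas was still called. The counts were 2 higher and 0 lower with equal sums, 1 and 1 under quantile normalization, and 1 and 6 after median centring, where the median of all genes was at 0.23, 0 and -0.38, in that order. The total FPKM of the groups, 616260 and 975407, moves with these 4 genes, and its part beyond those scalings was not tested. The 11 granulosa genes summed to 61.7 FPKM in culture and 58.5 in the animal, or 34.6 and 16.3 without Cyp19a1. Cumulus cell genes summed to 13.6 and 10.5 FPKM. The oocyte genes without Gdf9 summed to 2754 and 917 FPKM, while Gdf9 had 6768 and 11132. The part of these in the differences, that of Gnas among them, was not tested.

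**Figure D4:**
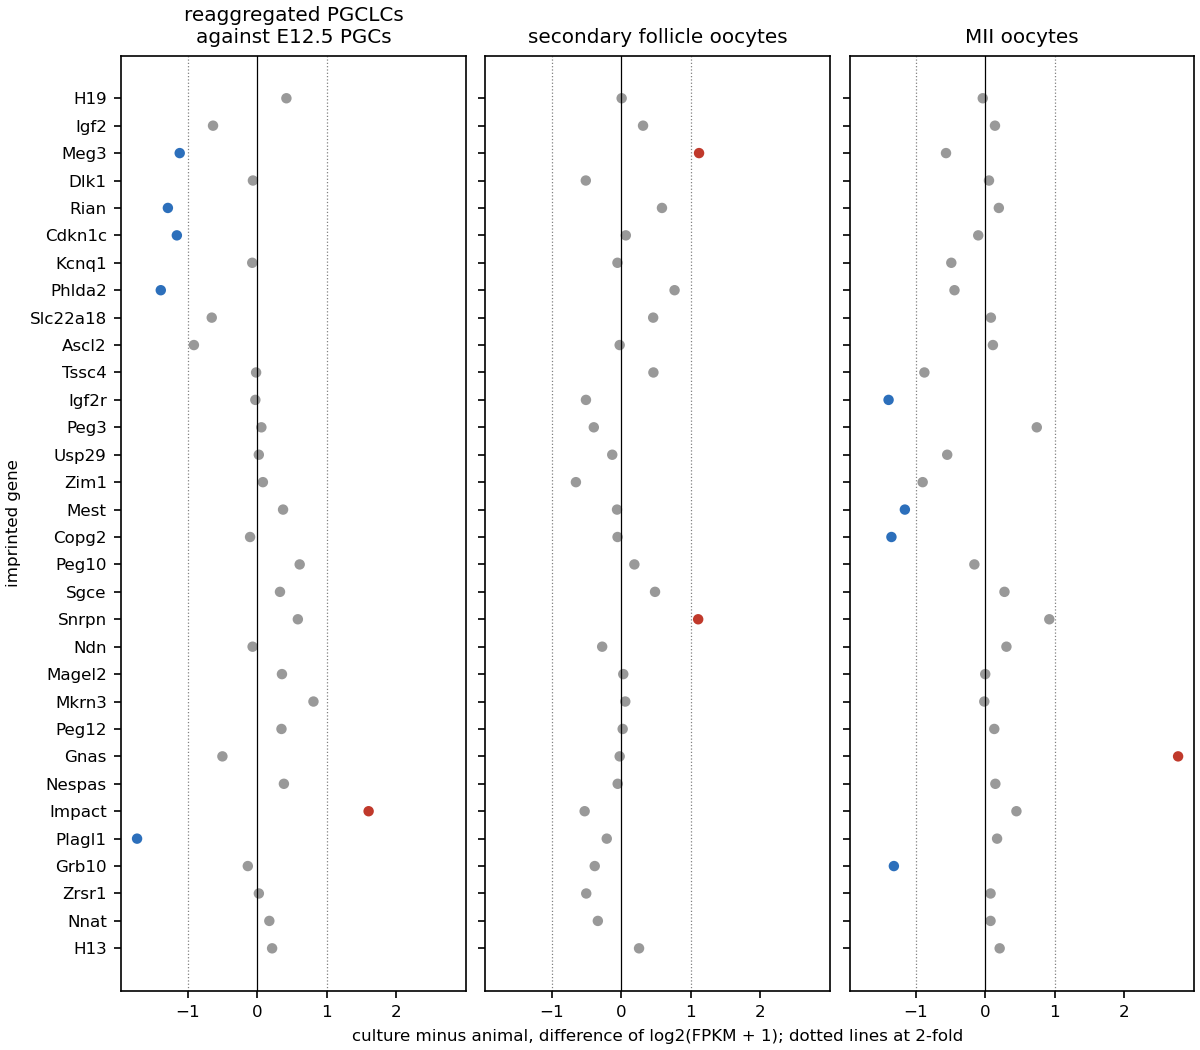
Difference of log2(FPKM + 1), culture minus animal, for each of the 32 imprinted genes at 3 stages, with dotted lines at 2-fold. Red points were called higher in culture and blue points lower; Plagl1 and Impact lie farthest out in germ cells, and Gnas in MII oocytes.

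Further imprinted genes, from a list of 50 of which 39 had at least 1 FPKM, also had more members lower than higher at the step to the secondary follicle. In culture 15 (38.5%) were lower and 7 (17.9%) higher, against 26.4% and 25.2% of all tested genes. In the animal 16 (41.0%) were lower and 7 (17.9%) higher, against 25.9% and 24.3%. The amino acid transporter gene Slc38a4 had 36.8 FPKM in reaggregated PGCLCs and 0.0953 in cultured secondary follicle oocytes, with 18.1 and 0.0884 in the animal. The chromatin gene Jade1 had 23.7 and 0.471 FPKM in culture and 24.5 and 0.561 in the animal. Th, for tyrosine hydroxylase, was higher, at 0.374 and 46.2 FPKM in culture and 0.278 and 40.9 in the animal. Slc38a4 and Jade1 reached 1 FPKM only outside oocytes and Th only in oocytes, so the minimum bore on their direction. From ESCs to day 6 PGCLCs 9 (23.1%) were higher and 11 (28.2%) lower, against 9.63% and 12.0% of all tested genes, with a median of -0.05, where the 32 genes above had 0.53. In culture against the animal 0 were higher and 2 (5.13%) lower in germ cells, against 1.39% and 0.786% of all tested genes. At the secondary follicle 1 was higher and 1 lower (2.56% each, against 1.74% and 0.660%), and at MII 2 and 3 (5.13% and 7.69%, against 12.4% and 9.45%).

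Genes that set or keep imprints also differed between stages. Of 24 on the list, 22 had at least 1 FPKM. ZFP57, the keeper of imprints described above, comes from Zfp57, which had 185 FPKM in ESCs, 1.15 in day 6 PGCLCs, 1.78 in reaggregated PGCLCs and 928 in cultured secondary follicle oocytes, and in the animal 1.32 in PGCs and 866 in secondary follicle oocytes. Dnmt3l, the methyltransferase cofactor needed for maternal imprints, had 0.00840 FPKM in reaggregated PGCLCs and 62.1 in cultured secondary follicle oocytes, and 0.00949 and 54.7 in the animal. Uhrf1, which brings the maintenance methyltransferase to DNA, had 123 FPKM in ESCs and 7.26 in day 6 PGCLCs. From ESCs to day 6 PGCLCs 2 of the 22 (9.09%) were higher and 6 (27.3%) lower, against 9.63% and 12.0% of all tested genes. Into the secondary follicle 8 were higher and 8 lower in culture (36.4% each, against 25.2% and 26.4%), and 9 and 8 in the animal (40.9% and 36.4%, against 24.3% and 25.9%). Between culture and animal 0 of 22 were called in germ cells and 0 of 22 at the secondary follicle. At MII 2 (9.09%) were higher and 5 (22.7%) lower, against 12.4% and 9.45% of all tested genes. Dnmt3l had 147 FPKM in cultured and 15.6 in natural MII oocytes, a difference of 3.16. Among the genes lower in culture, Setd2 differed by -1.86, Smchd1 by -1.46 and Tet3 by -1.19. Total FPKM was 616260 in cultured and 975407 in natural MII oocytes. The calls of this list and of the further imprinted genes were not repeated under other scalings, so the part of scale in them was not tested.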

How the data were processed

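Directional libraries were made from the poly(A) RNA of 23 samples, which form 8 groups. Per the file headers, the authors deposited FPKM, a single value for each group and gene. How samples were combined, whether strand was used and which annotation was counted are not given in the sources used here. Per the submitters' processing notes, TopHat2, Bowtie2 2.0.13, Cufflinks, Cuffdiff 2.2.1 and mm10 were used. Values per sample and read depth were not seen, so no test was made and precision is unknown. The samples of a group are separate samples in the labels, 3 in 7 groups and 2 in 1.

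Values were taken as log2(FPKM + 1) over 14242 genes with at least 1 FPKM in at least 1 group. A gene was called at a difference of at least 1, in 9 comparisons, 3 of culture against animal and 6 of consecutive stages. The members and gene lists were chosen with earlier results of these data known. Genes with at least 10 FPKM in a group are given in all groups. From the lists of further imprinted genes and of genes that set or keep imprints, at most the 4 called genes with the largest difference and at least 10 FPKM in the higher group are named in a comparison. The calling step was run on values with changes set beyond the 2-fold cut in genes of at least 10 FPKM, without noise. Those calls were fixed in advance, so this checks the calculation only, and not genes at low levels. Tried as alternatives were equal sums, median centring, quantile normalization, pseudocounts of 0.1 and 5, no filter, and a minimum of 5 FPKM. Under them the imprinted genes of the main list were called again, while the further lists and the share of all genes called were not counted. Gene coordinates and exon overlaps are from GENCODE M21 (GRCm38), and promoters from RefSeq. Mirg matched no row by symbol or by 6 other names. Python 3.11.15, pandas 2.3.3, NumPy 2.4.6 and matplotlib 3.10.9 were used.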

Additional observations from a re-analysis of the deposited data

Results flagged for a closer look

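Meg3 was called lower in culture than in the animal among germ cells (1.93 against 5.34 FPKM) and higher among secondary follicle oocytes (1.64 against 0.214 FPKM). The differences of log2(FPKM + 1) were -1.11 and 1.12, so they lay 2.23 apart. It was singled out because the difference between routes had opposite signs at 2 stages. That was not tested, since each group has 1 value, and neither difference reached 2-fold with a pseudocount of 5.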

How the results depend on the processing

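Counts of imprinted genes called, of either direction, moved by more than 1.5 times under these alternatives. With a pseudocount of 0.1, the 6 of reaggregated PGCLCs against PGCs became 11, the 2 of the secondary follicle oocytes 9 and the 5 of the MII oocytes 9. With a pseudocount of 5 the first count became 3 and the second 0, the 10 of reaggregated against day 6 PGCLCs became 4, the 20 of the step to the secondary follicle in culture 12, and the 22 of that step in the animal 14. Under quantile normalization the secondary follicle count was 1 and the MII count 2, and with equal sums the MII count was 2. Kcnq1 turned from 1.33 to -0.11 with equal sums in natural MII against secondary follicle oocytes. Of 110 single calls, a pseudocount of 5 ended 35, quantile normalization 10, equal sums 7 besides the reversal and median centring 5, and none ended with a pseudocount of 0.1 or without the filter. Of the 103 calls whose genes passed a filter of 5 FPKM, that filter ended none. No paired analysis was possible because the table holds 1 value per group, and for the same reason no replicate could be left out. The read depth is unknown, so it cannot be said which low values, such as those under 1 FPKM, differ from 0.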

Other observations

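Values of 5 further imprinted genes, picked after their values were seen because their silencing on the maternal copy is known to rest on histone marks of the oocyte, are given as a description. Slc38a4, Jade1, Gab1, Sfmbt2 and Smoc1 were all called lower in secondary follicle oocytes than in germ cells on both routes. Lower on both routes were also 3138 of all 14242 tested genes. The 5 genes were picked with their values seen, so their shared direction is no test of genes of this kind. Sfmbt2, a polycomb-related gene, had 14.4 FPKM in day 6 PGCLCs, 6.55 in reaggregated PGCLCs and 4.84 in PGCs, and at most 0.0512 in the 4 oocyte groups. Gab1, a signaling adaptor gene, had 6.13 FPKM in reaggregated PGCLCs, 0.585 in cultured secondary follicle oocytes and 4.12 in cultured MII oocytes, and in the animal 4.48, 0.196 and 4.76. Gab1 was thus low at the secondary follicle and higher at MII, as Igf2, Snrpn, Igf2r and Phlda2 were. It was the only gene of the 5 with that course. From the secondary follicle to MII, Smoc1 was called lower on both routes. Slc38a4, Jade1 and Sfmbt2 were called at that step on neither route. How many of all tested genes were low at the secondary follicle and higher at MII was not counted.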
